A study of Rattus norvegicus with 6 samples.

Results

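The genes described here are 10 chemokines, chemokine receptors and homing molecules of the gut mucosa, chosen by name from 18166 genes with a value on the arrays. They are the chemokines *Ccl25*, *Ccl28*, *Ccl20* and *Cxcl13*, the receptors *Ccr9*, *Ccr6*, *Cxcr5* and *Ccr7*, the vascular addressin *Madcam1* and the integrin subunit *Itgb7*. Each of the 10 has 1 transcript cluster with exactly 1 gene symbol, so no choice between clusters was made for them. Gene expression was measured with 1 Affymetrix rat gene array per pup in the intestine of 3 pups of HFD-sitagliptin dams and 3 pups of HFD dams. All were Sprague Dawley rats at 3 weeks of age, and the pups were male per the paper. Both groups of dams received the high fat diet (HFD) before mating and through pregnancy and lactation, and the HFD-sitagliptin dams also received sitagliptin, an oral inhibitor of dipeptidyl peptidase 4, during pregnancy and lactation. The drug was given to the dams and not to the pups, and the part of the intestine that was sampled is not given in the sources used here. Per the paper, 1 male pup was drawn at random from a litter for study, so the pups of a group would come from separate litters, although the labels do not name the litters.

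Chemokines are small secreted proteins that attract leukocytes carrying the matching receptor. In the gut, *Ccl25* is made by the epithelium of the small intestine and attracts T cells and plasma cells that carry *Ccr9*, while *Ccl28* is made by mucosal epithelia, the colon among them, and attracts IgA-secreting plasma cells through *Ccr10*. *Ccl20* is made by the epithelium over lymphoid follicles and draws *Ccr6*-bearing B cells, T cells and dendritic cells. *Cxcl13* draws *Cxcr5*-bearing B cells into follicles, and *Ccr7*, the receptor of *Ccl19* and *Ccl21*, directs T cells and mature dendritic cells into the zones between them. *Madcam1* is the adhesion molecule of gut venules, and its ligand is the integrin formed by *Itga4* and *Itgb7* on gut-homing lymphocytes.

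Values are log2 expression values as the authors normalized them, and each log2 fold change is the mean of HFD-sitagliptin pups less that of HFD pups. The study's threshold was a 1.5-fold change in either direction together with an unadjusted p below 0.05, taken here from limma's moderated test. The array of HFD-sitagliptin replicate 1 stood apart. Across all genes its Pearson r with each of the other 5 was 0.926 to 0.940, while among those 5 r was 0.968 to 0.985. It had a value of 2.72 for *Si*, the sucrase-isomaltase of small intestinal brush border, against 11.39 to 12.49 on the others, and of 12.41 for *Car1*, a carbonic anhydrase of colonic epithelium, against 3.41 to 4.04. The replicate 2 arrays were high in *Fabp6*, an ileal bile acid binding protein, at 13.16 in the HFD-sitagliptin pup and 12.62 in the HFD pup, and the other 4 arrays had at most 7.36. The change of each of the 10 genes is therefore given with and without HFD-sitagliptin replicate 1. A low value in intestinal tissue can come from fewer cells of a type or from less RNA per cell, which these arrays cannot tell apart. The part of the intestine sampled is not given, and whether it differed between arrays was not tested. As a gauge of background, 1185 genes of olfactory receptors, which are little used outside the nose, had a median level of 2.66 and a 95th percentile of 4.44. The means of 8 of the 10 genes lay above that percentile. Those of *Ccr6* and *Cxcr5* did not.

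Of the 10 genes, 1 was past the study's threshold, the receptor *Ccr6*, which was lower in pups of HFD-sitagliptin dams, and 9 were not. Over all genes tested, 365 of 18166 were past it (2.01%), with 0.705% higher and 1.3% lower. No gene had a limma adjusted p under 0.05, while 1040 genes (5.72%) had an unadjusted p under 0.05. The median log2 fold change was 0.13 over the 10 genes, beside 0.01 over all genes. Without HFD-sitagliptin replicate 1, 0 of the 10 genes were past the threshold, beside 1.63% of all genes, and the median was 0.097. In that fit *Itgb7* had an unadjusted p of 0.0407 in limma at a fold below the threshold, and the other 9 had larger p values.

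**Figure D1:**
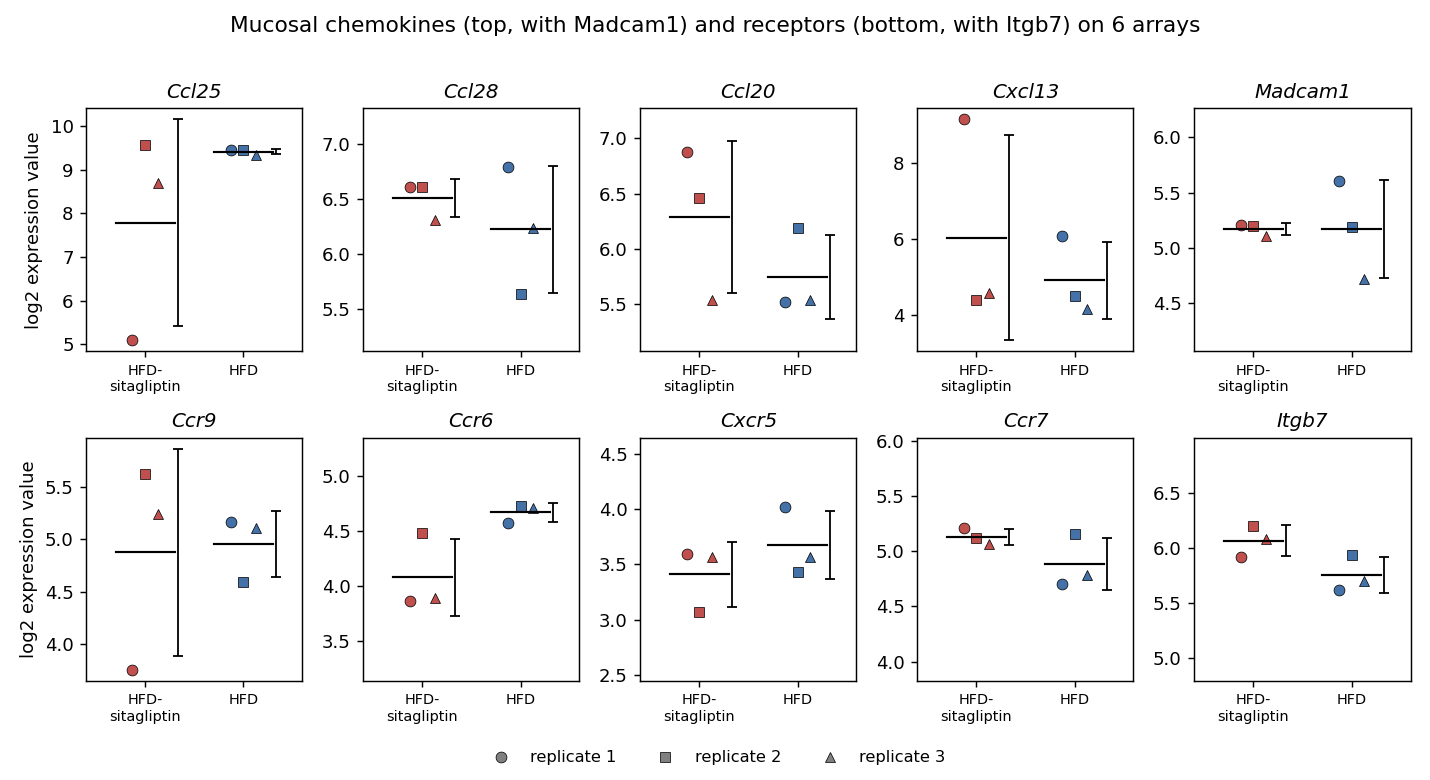
The log2 expression value of each of the 10 genes on each array, with HFD-sitagliptin pups in red on the left and HFD pups in blue on the right of each panel. Circles, squares and triangles are replicates 1, 2 and 3, horizontal bars are group means and error bars are SDs (n = 3), and each panel has its own axis range. *Ccl25* and *Ccr9* were lowest and *Cxcl13* was highest in HFD-sitagliptin replicate 1, and the groups did not overlap for *Ccr6* only.

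The widest differences between arrays were those of *Cxcl13* and *Ccl25*, which deviated in opposite directions on the same array. *Ccl25* had values of 5.10, 9.56 and 8.70 in the 3 HFD-sitagliptin replicates, against 9.44, 9.44 and 9.34 in the HFD replicates. HFD-sitagliptin replicate 1 differed from the median of the other arrays by -4.34, and those 5 lay within 0.85 of each other. A range over the arrays as wide as the 4.46 of *Ccl25* was seen in 0.584% of all genes. Its mean was 7.78 ± 2.37 in HFD-sitagliptin pups and 9.41 ± 0.055 in HFD pups (SD, n = 3 each). HFD replicates 1 and 2 share their value to 4 decimals, which enters the small SD of HFD pups. The log2 fold change was -1.62 (standard error 1.08, limma adjusted p = 0.718) with all arrays and -0.28 (standard error 0.26, limma adjusted p = 0.865) without that array.

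*Cxcl13* had values of 9.16, 4.39 and 4.57 in HFD-sitagliptin replicates 1 to 3, against 6.08, 4.51 and 4.17 in HFD replicates 1 to 3. The replicate 1 arrays were the highest of their group in both groups, and HFD-sitagliptin replicate 1 was 4.66 above the median of the others. Only 0.413% of all genes had a range as wide as its 4.996. Group means were 6.04 ± 2.71 in HFD-sitagliptin pups and 4.92 ± 1.02 in HFD pups. The log2 fold change was 1.12 (standard error 1.32, limma adjusted p = 0.8004), and without HFD-sitagliptin replicate 1 it was -0.44 (standard error 0.58, limma adjusted p = 0.890), so its sign rests on that array.

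The stretches of genome around the start sites of these genes with the widest ranges are shown for reference, as RefSeq gives them on GRCr8, each from 250 bases before to 50 bases after the start of the gene. The *Ccl25* stretch is chr12:7504985-7505284 on the plus strand and the *Cxcl13* stretch is chr14:13917871-13918170 on the minus strand, and both are written 5′ to 3′ in the direction of the gene. Capitals mark matches on either strand to 3 patterns. The first is TATAAA, the letters of the box that positions transcription. The next, a loose kappa B pattern after the sites of nuclear factor kappa B, is GGG followed by 5 bases of any kind and then by a pair of C. The last is TTTAT, the core bound by CDX proteins, the caudal homeobox factors of intestinal epithelium.
Ccl25: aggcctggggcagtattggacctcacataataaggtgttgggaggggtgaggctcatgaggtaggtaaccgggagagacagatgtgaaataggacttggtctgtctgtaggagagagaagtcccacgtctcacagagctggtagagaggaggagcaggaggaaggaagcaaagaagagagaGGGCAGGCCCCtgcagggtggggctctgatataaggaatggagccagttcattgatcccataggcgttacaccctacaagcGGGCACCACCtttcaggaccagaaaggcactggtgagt
Cxcl13: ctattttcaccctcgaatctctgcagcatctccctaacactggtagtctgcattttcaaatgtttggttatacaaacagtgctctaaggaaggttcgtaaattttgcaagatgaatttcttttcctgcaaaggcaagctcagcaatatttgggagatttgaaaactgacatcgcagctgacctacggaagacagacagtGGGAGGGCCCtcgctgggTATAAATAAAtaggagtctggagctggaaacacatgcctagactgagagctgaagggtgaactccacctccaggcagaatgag
In *Cxcl13* the TATAAA match begins 33 bases before the start, and the CDX matches overlap or adjoin it, so they are not separate from it. A kappa B match begins 51 bases before the start of *Cxcl13*, and in *Ccl25* matches begin 69 bases before the start and at base 13 of the transcript. The *Ccl25* stretch has no match to TATAAA or TTTAT, which says only that these letters are not in this window. The matches are common, since 14.2% of 33469 rat promoters of this length hold TATAAA, 47.3% the kappa B pattern and 42.5% TTTAT. Of the 10 genes, 7 had a sequence in the table used. The kappa B pattern was in 5 of these 7, and *Madcam1* holds the matches GGGAAAGCCC and GGGAAATCCC, beginning 119 and 106 bases before its start, while *Ccl28* and *Ccr6* hold none of the 3 patterns.

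*Ccl20* was high on 3 arrays that span both groups. Its values were 6.88, 6.46 and 5.54 in the HFD-sitagliptin replicates, against 5.52, 6.19 and 5.54 in the HFD replicates. The replicate 2 arrays of both groups and HFD-sitagliptin replicate 1 were high, and the other 3 arrays lay between 5.52 and 5.54. The log2 fold change was 0.54 (standard error 0.37, limma adjusted p = 0.719). It was 0.25 without HFD-sitagliptin replicate 1. When the low array of that group, replicate 3, was left out, it was 0.92 and past the study's threshold (unadjusted p = 0.0176 and adjusted p = 0.594 in limma). In that fit 880 of all 18166 genes were past the threshold, against 365 with all arrays. *Ccl28* had values of 6.60, 6.61 and 6.31 in HFD-sitagliptin pups and of 6.79, 5.64 and 6.24 in HFD pups. The groups overlapped, and the lowest array was HFD replicate 2. Unlike *Ccl25*, the value of *Ccl28* in HFD-sitagliptin replicate 1 lay inside the range of the other arrays. Its log2 fold change was 0.28 (standard error 0.29, limma adjusted p = 0.774) with all arrays, 0.23 without HFD-sitagliptin replicate 1 and -0.0092 without HFD replicate 2.

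Among the receptors, *Ccr9* followed *Ccl25* in being lowest in HFD-sitagliptin replicate 1. Its values were 3.75, 5.63 and 5.24 in HFD-sitagliptin replicates, against 5.17, 4.59 and 5.11 in HFD replicates. The value of 3.75 lies below the olfactory receptor level of 4.44, and those of the other 5 arrays lie above it. With all arrays the log2 fold change was -0.083 (standard error 0.48, limma adjusted p = 0.962). It was 0.48 (standard error 0.23, unadjusted p = 0.0892 and adjusted p = 0.843 in limma) without HFD-sitagliptin replicate 1, so here too the sign turned.

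*Ccr6* had values of 3.86, 4.48 and 3.89 in HFD-sitagliptin pups and of 4.57, 4.73 and 4.71 in HFD pups. All 3 HFD-sitagliptin values lay below all 3 HFD values, as in 5.54% of all genes, and 11.5% of genes had groups apart in either direction. Means were 4.08 ± 0.35 in HFD-sitagliptin pups and 4.67 ± 0.087 in HFD pups. The log2 fold change was -0.588 (standard error 0.19), just past the threshold of 0.585 on that scale, with an unadjusted p of 0.0204 and an adjusted p of 0.718 in limma. In the methods' t-test the unadjusted p was 0.0468 and the Benjamini-Hochberg adjusted p was 0.768, a value given here beside limma's. Of the 6 fits that each leave out an array, *Ccr6* was past the threshold in 2, those lacking HFD-sitagliptin replicate 2 or HFD replicate 1. Its log2 fold change ran from -0.79 to -0.48 over these fits and was -0.48 without HFD-sitagliptin replicate 1. Its mean level of 4.37, at percentile 94.2 of the olfactory receptor genes, is near background.

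*Cxcr5*, the receptor of *Cxcl13*, did not share the high value of its ligand. It was at 3.59, 3.07 and 3.57 in HFD-sitagliptin pups and at 4.02, 3.43 and 3.57 in HFD pups, at percentile 79.7 of the olfactory receptor genes. Its log2 fold change was -0.26 (standard error 0.22, limma adjusted p = 0.738), and -0.35 without HFD-sitagliptin replicate 1. *Ccr7* had values of 5.21, 5.12 and 5.06 in HFD-sitagliptin pups and of 4.71, 5.16 and 4.79 in HFD pups. HFD replicates 1 and 3 lay below all HFD-sitagliptin arrays and HFD replicate 2 lay among them. The log2 fold change of *Ccr7* was 0.25 (standard error 0.15, limma adjusted p = 0.718) and 0.21 without HFD-sitagliptin replicate 1.

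*Madcam1* had a small fold change but a wide spread in HFD pups. It had values of 5.21, 5.20 and 5.11 in HFD-sitagliptin pups and of 5.60, 5.19 and 4.71 in HFD pups, with a log2 fold change of 0.0030 (standard error 0.23, limma adjusted p = 0.996), or -0.015 without HFD-sitagliptin replicate 1. The HFD-sitagliptin values lay inside the HFD range, and the sign turned under other settings. *Itgb7* was at 5.92, 6.20 and 6.08 in HFD-sitagliptin pups and at 5.62, 5.94 and 5.70 in HFD pups. The groups overlapped by 1 pair of arrays, since HFD-sitagliptin replicate 1 lay just below HFD replicate 2. Its log2 fold change was 0.31 (standard error 0.14, unadjusted p = 0.0656 and adjusted p = 0.718 in limma) over the 6 arrays, and leaving out HFD-sitagliptin replicate 1 gave 0.39. Over the 6 fits with 1 array left out it ran from 0.25 to 0.41, always higher in HFD-sitagliptin pups and always under the fold threshold.

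**Figure D2:**
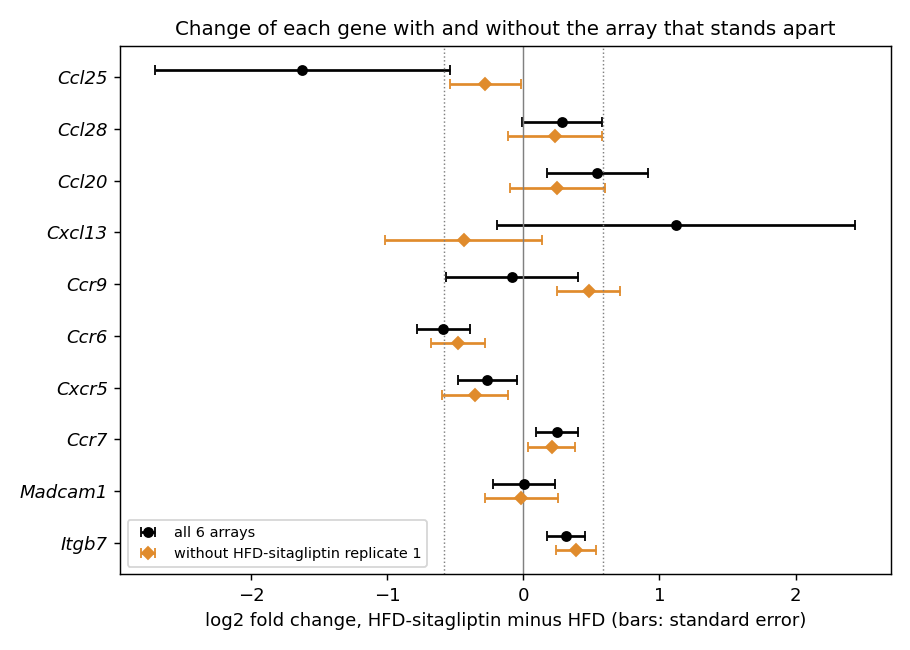
Log2 fold changes of the 10 genes, HFD-sitagliptin minus HFD, with standard errors from limma as bars, for all 6 arrays (black circles) and without HFD-sitagliptin replicate 1 (orange diamonds). Dotted lines mark a fold change of 1.5; *Cxcl13* was at 1.12 and -0.44 and *Ccr9* at -0.083 and 0.48 in these fits, whereas *Ccr6* was at -0.588 and -0.48.

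The other chemokine genes were read in the same fit. Of 31 other chemokine ligands, all measured, 0 were past the threshold with all arrays, beside 2.01% of all genes. The median log2 fold change of the ligands was 0.094, or 0.0055 without HFD-sitagliptin replicate 1. Of 16 measured chemokine receptors, from 19 listed, 0 were past the threshold, with a median of 0.047, or 0.089 without that array. The ligands with the smallest unadjusted p were *Cxcl6*, a neutrophil chemokine (-0.37), *Ccl24*, an eosinophil chemokine (-0.58), *Cxcl14* (0.41) and platelet factor 4, *Pf4* (0.40), with limma p values of 0.106 to 0.235. Leaving out HFD-sitagliptin replicate 1 gave -0.17 for *Ccl24* and 0.038 for *Pf4*, and *Pf4* was at 6.13 on that array, against 4.92 to 5.10 on the others. The receptors with the smallest p were *Ccr1* (-0.32), *Ccr3* (0.30), *Ccrl2* (0.22) and *Cxcr1* (0.19), and among the olfactory receptor genes the mean level of *Ccr3* ranked at percentile 41.0 and that of *Cxcr1* at 80.1. *Ccr10*, the receptor of *Ccl28*, had values of 4.48, 4.24 and 4.99 in HFD-sitagliptin pups and of 4.28, 4.46 and 4.82 in HFD pups.

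Several of these ligands also differed most on HFD-sitagliptin replicate 1. *Ccl21*, the ligand of *Ccr7* made by lymphatic vessels and lymphoid stroma, had values of 8.44, 5.26 and 5.22 in HFD-sitagliptin pups, against 6.04, 5.44 and 6.01 in HFD pups. Its value there was 2.99 above the median of the others. Without that array *Ccl21* was lower past the threshold (log2 fold change -0.59, unadjusted p = 0.0373 and adjusted p = 0.843 in limma). Of the 31 ligands it was the 1 past it in that fit, beside 1.63% of all genes. *Cxcl11*, a ligand of *Cxcr3*, stood 1.75 and *Cxcl12*, a stromal chemokine, 1.202 above the median of the others on the same array. *Ccl5*, a chemokine of T and NK cells, was at 5.81, 9.53 and 8.84 in HFD-sitagliptin pups and at 7.12, 8.64 and 8.27 in HFD pups. It was lowest on HFD-sitagliptin replicate 1 and next lowest on HFD replicate 1. *Cxcr6*, a receptor of resident T cells, was at 4.91, 6.30 and 6.01 in HFD-sitagliptin pups and at 5.39, 5.84 and 5.36 in HFD pups. It was higher past the threshold without HFD-sitagliptin replicate 1 (0.62, unadjusted p = 0.0235 and adjusted p = 0.843 in limma). Of the 16 receptors it was the 1 past it in that fit, beside the same 1.63% of all genes. *Ccl21*, *Cxcl11*, *Cxcl12*, *Ccl5*, *Cxcr6* and *Ccr10*, and *Cd79a* among the B cell genes, were picked after their values were seen.

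**Figure D3:**
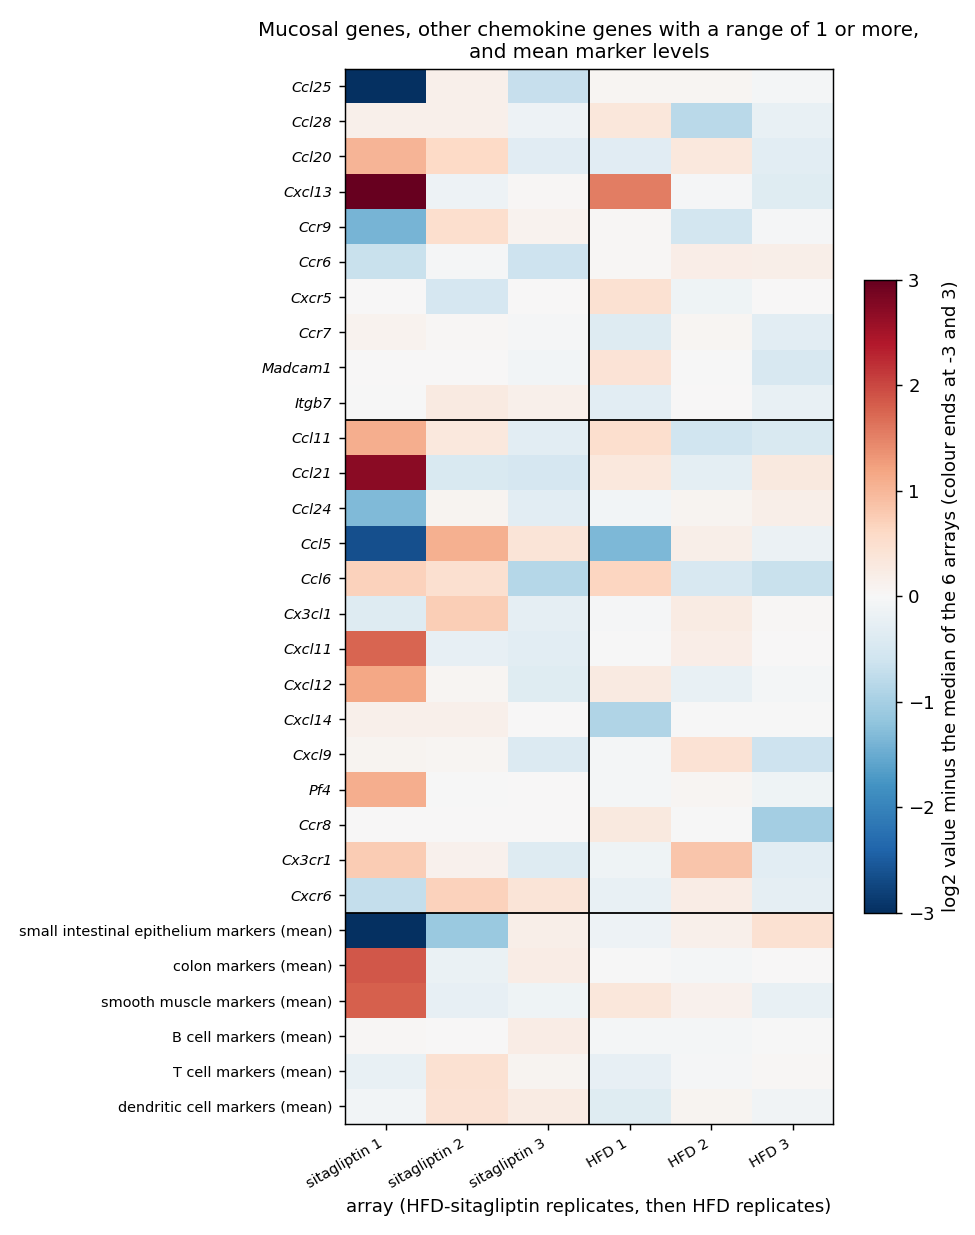
Deviation of each array from the median of the 6 arrays, in log2 units, for the 10 mucosal genes (top block), other chemokine ligands and receptors with a range of at least 1 (middle block) and mean levels of marker lists (bottom block). Red is above and blue below the median, HFD-sitagliptin arrays stand left of the line, and HFD-sitagliptin replicate 1 carries the deepest colours. The colours end at a deviation of 3, which *Ccl25* and *Cxcl13* exceed on that array, at -4.34 and 4.66 from the median of the other arrays.

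Marker levels moved with these values on HFD-sitagliptin replicate 1. The mean level of 10 measured genes of small intestinal epithelium, from 11 listed, was 5.46 there and 9.96 and 11.24 in the other HFD-sitagliptin arrays, against 10.91 to 11.51 in HFD arrays. For 7 measured colon genes, from 8 listed, it was 7.06 there and at most 5.41 in the other HFD-sitagliptin arrays, against 5.14 to 5.21 in HFD arrays. For 4 measured smooth muscle genes, from 6 listed, it was 11.64 there and 9.59 and 9.71 in the others of its group, against 9.61 to 10.17 in HFD arrays. The mean of the colon genes includes the high value of *Car1* on that array. Of these 7 genes, 3 had means above the olfactory receptor level, and the median log2 fold change of the 7 was 0.14. The part of these marker levels in the values of *Ccl25*, *Ccr9*, *Cxcl13* and *Ccl21* was not tested. The B cell genes were mixed on HFD-sitagliptin replicate 1. Over 9 measured B cell genes, from 11 listed, the mean level was 4.30, 4.27 and 4.48 in HFD-sitagliptin arrays, against 4.20 to 4.27 in HFD arrays, and 5 of the 9 had means above the olfactory receptor level. *Ms4a1*, which encodes CD20 of B cells, was at 4.14, 3.08 and 3.69 in HFD-sitagliptin pups and at 3.61, 3.49 and 3.61 in HFD pups, highest on HFD-sitagliptin replicate 1 and below the olfactory receptor level on all arrays. *Cd79a*, part of the B cell receptor, was at 5.46, 5.85 and 6.09 in HFD-sitagliptin pups and at 5.28, 5.37 and 5.47 in HFD pups, and was lowest of its group on HFD-sitagliptin replicate 1. *Cr2*, the complement receptor of B cells and follicular dendritic cells, was at 2.81, 2.56 and 2.75 in HFD-sitagliptin pups and at 2.502, 2.36 and 2.62 in HFD pups. It too was highest on HFD-sitagliptin replicate 1, at levels near the median of the olfactory receptor genes.

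Genes of homing, adhesion and lymphoid tissue formation gave small changes. Of 17 measured homing and adhesion genes, from 19 listed, 0 were past the threshold, beside 2.01% of all genes. A positive change was seen in 14 of the 17, beside 9422 of all 18166 genes, and in 12 without HFD-sitagliptin replicate 1. The median log2 fold change of the 17 was 0.14, or 0.045 without HFD-sitagliptin replicate 1. The groups were apart and higher in HFD-sitagliptin pups for 4 of 17, beside 5.97% of all genes. These were *Itga4*, the partner of *Itgb7*, the leukocyte integrin subunit *Itgb2*, the endothelial ligand *Icam2* and the venule mucin *Glycam1*. Among the other chemokine genes, the groups were apart in this direction for 2 of 31 ligands and 0 of 16 receptors. *Itga4* had values of 5.81, 6.30 and 5.88 in HFD-sitagliptin pups and of 5.60, 5.66 and 5.66 in HFD pups, with a log2 fold change of 0.36 (standard error 0.16, unadjusted p = 0.0630 in limma). *Itgb2* and *Icam2* had log2 fold changes of 0.38 and 0.40 (unadjusted p = 0.0283 and 0.0227 in limma, adjusted p = 0.718 each). *Glycam1* had one of 0.25, at percentile 93.8 of the olfactory receptor genes. Of 11 measured genes of lymphoid tissue formation, from 12 listed, 0 were past the threshold, beside the same 2.01%, with a median of 0.19. The groups were apart and higher in HFD-sitagliptin pups for 2 of the 11, *Id2* and *Map3k14*, beside the same 5.97%. *Id2*, a factor of lymphoid tissue inducer cells among others, had a log2 fold change of 0.40 (unadjusted p = 0.0222 in limma) at percentile 94.2 of the olfactory receptor genes. *Ltb*, the lymphotoxin beta that these cells present to stroma, had one of 0.34, *Map3k14*, the kinase of the noncanonical pathway, one of 0.31, and *Tnfsf11* one of 0.19. Leukocyte marker lists had positive medians too, but so did lists of other tissues, such as smooth muscle (0.41) and pancreas (0.28). The median of the B cell genes was 0.067. Medians were negative for small intestinal epithelium (-2.40), ileum (-1.82) and endothelium (-0.15). The mean level of 11 T cell genes was 5.25 to 5.93 in HFD-sitagliptin arrays, against 5.24 to 5.52 in HFD arrays, and that of 6 dendritic cell genes was 5.91 to 6.42, against 5.64 to 6.07. Median log2 fold changes were 0.29 for the T cell and 0.30 for the dendritic cell genes, with 0 past the threshold, and their part in the changes of *Itgb7*, *Itga4* and *Itgb2* was not tested.

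**Figure D4:**
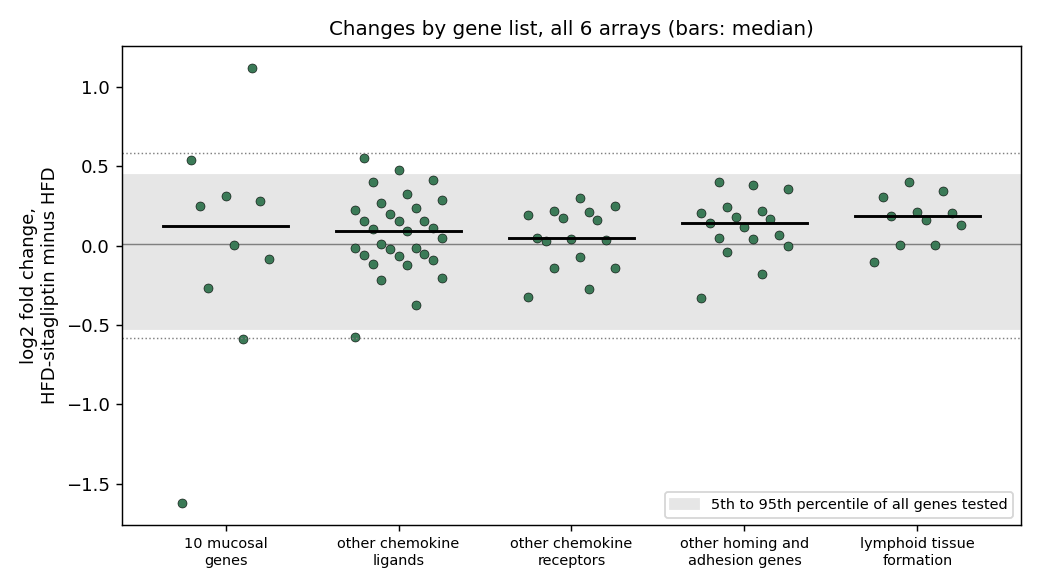
Log2 fold changes, HFD-sitagliptin minus HFD over all 6 arrays, of the 10 mucosal genes and of the 4 other lists, 1 point per measured gene with the list's median as a bar. The grey band spans the 5th to the 95th percentile of all genes tested (-0.53 to 0.45), dotted lines mark a fold change of 1.5, and *Cxcl13* and *Ccl25* are the points at 1.12 and -1.62.

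Patterns over the arrays were also compared gene by gene. For each of the 5 genes with a range of at least 1, as 22.2% of all genes had, the 3 genes with the highest Pearson r over the 6 arrays were taken from 11884 genes above the olfactory receptor level. The closest to *Ccl25* were *Defa9*, a Paneth cell defensin (r = 0.998), *C2cd2l* (r = 0.998) and *Ceacam20*, a brush border adhesion protein (r = 0.996). *Defa9* was at 3.03 in HFD-sitagliptin replicate 1 and at 11.18 to 13.15 on the other arrays. The closest to *Cxcl13* were *Lum*, the stromal proteoglycan lumican (r = 0.997), *Or5af1b* (r = 0.996) and *Fuca2* (r = 0.995). *Lum* was at 8.48 in HFD-sitagliptin replicate 1 and at 6.29 to 7.19 on the others, whereas the whole range of *Or5af1b*, an olfactory receptor gene, was 0.17. For *Ccl20* they were *Ldlrad3*, *Vldlr*, the very low density lipoprotein receptor, and *Acss1* (r = 0.982 to 0.988). For *Ccr9* they were *Gpc4*, *Atp7a* and *Zc3h7a* (r = 0.986 to 0.998), and for *Ccl28* they were *Rpl30l1*, *Ppard* and *Pwp2* (r = 0.976 to 0.989). Over the 5 arrays without HFD-sitagliptin replicate 1, r with *Ccl25* was 0.948 for *Defa9*, 0.922 for *C2cd2l* and 0.902 for *Ceacam20*. Over the same 5 arrays r with *Cxcl13* was 0.980 for *Lum*, 0.9702 for *Or5af1b* and 0.959 for *Fuca2*. The values of r over all arrays rest on 6 points each and were picked as the highest among many genes. Those over 5 arrays are for genes picked in that way, so all of them are descriptions.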

How the data were processed

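Total RNA of the pups' intestines was hybridised to Affymetrix rat gene arrays, and per the paper normalization and quality checks were done by the authors in GeneSpring 12.5. The normalization algorithm and the genome build are not given in the sources used here. The deposited values were used as log2 values, a scale inferred from their range of 0.58 to 13.55, with array medians of 4.45 to 4.62. Arrays carry no read depth, and precision depends in part on how many there are. Of 36685 transcript clusters, 18511 carry exactly 1 gene symbol, which gave 18166 genes, each by its cluster with the highest mean; some listed genes have no such cluster and are not analysed here. For 28.8% of genes at least 2 arrays share a value to 4 decimals, *Ccl25* and *Cxcr5* among them.

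Groups were compared in limma 3.58.1 (R 4.3.3) without covariates, with Benjamini-Hochberg adjustment over all genes. The fit was tested on simulated data with independent normal noise. These data held no array that stands apart, so the test does not cover that feature of the real arrays. For the methods' t-test the variances were taken as equal. The alternatives were the replicate number as a block, a trend with robust moderation, array weights, quantile normalization, centring, leaving out each array, leaving out genes below the 40th percentile, the mean of clusters and other thresholds. After subtraction of group means, same-number arrays correlated at 0.146, 0.284 and 0.148 and the others at -0.24 to 0.0201 across genes. The same-number values all lay above 0.1, the level set for pairing. The replicate numbers were taken as pairs in the block alternative only, and the main fit made no use of them. Neither labels nor paper state a pairing. The block changed no call named in the report.

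The 10 genes, the lists and the tests were chosen with earlier results of these data known. Named beside the 10 are up to 4 genes of each list by the smallest p, those past the threshold, the 3 genes most like in pattern to each gene with a range of at least 1, and the marker genes *Si*, *Car1*, *Fabp6*, *Ms4a1* and *Cr2*. The other genes named in the report were picked after their values were seen. Promoter sequences are those of RefSeq for GRCr8.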

Additional observations from a re-analysis of the deposited data

How the results depend on the processing

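Over the alternatives, the count of all genes past the threshold was 365 with all arrays, 158 by the methods' t-test, 57 at a fold of at least 2 and 0 at an adjusted p under 0.05, and 239 to 880 with 1 array left out, at its highest without HFD-sitagliptin replicate 3 and at its lowest without HFD replicate 1. It was 476 with the replicate number as a block, which left *Ccr6* as the 1 gene of the 10 past the threshold and changed no call of the 4 other lists. Centring the arrays on their medians gave 81 higher and 390 lower genes, against 128 and 237 as deposited. The count among the 10 genes was 0 with array weights, at a fold of at least 2 and at an adjusted p under 0.05, and 0 to 1 with 1 array left out. *Ccr6* missed the threshold with array weights (-0.50) and in 4 of the 6 fits that lack an array (-0.57 to -0.48, those lacking replicate 1 or 3 of HFD-sitagliptin, or 2 or 3 of HFD), and *Ccl20* was past it without HFD-sitagliptin replicate 3. The counts of other ligands and of other receptors were each 0 to 1 with 1 array left out, *Ccl21* and *Cxcr6* without HFD-sitagliptin replicate 1 and *Ccl24* (-0.88) without HFD-sitagliptin replicate 2, and 0 under the other alternatives. The sign of the log2 fold change turned with 1 array left out for *Ccl28* (-0.0092 to 0.57), *Cxcl13* (-0.44 to 1.95), *Ccr9* (-0.46 to 0.48) and *Madcam1* (-0.22 to 0.22). It also turned for *Ccr9* with array weights (0.23) and for *Madcam1* with quantile normalization (-0.039) and with centring (-0.059). The other 6 genes kept their sign under every alternative in which they had a value. *Cxcr5* has none where dim genes are left out. Apart from the arrays left out, the causes of these changes were not tested.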
